A study of Homo sapiens with 16 samples.

Results

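The response of each gene to itraconazole was compared between HT55 and SW948, which are established human colorectal cancer cell lines. The comparison was the difference of responses, called the interaction here: the log2 fold change of itraconazole against DMSO in SW948 minus the same fold change in HT55. A positive interaction therefore means a higher response in SW948, and a negative one a higher response in HT55. All 16 of 16 RNA sequencing libraries entered it, as 4 replicates of each of 4 groups, namely each line with the solvent DMSO and each line with the drug. Itraconazole was given at 5 µM, and RNA was taken at day 6 from adherent cultures in medium with serum. Each line stands for 1 patient's tumour, so the comparison is of these 2 lines and not of classes of tumour. The study's methods describe biological quadruplicates, and no label ties a control culture to a treated one. The counts are of RNA from whole cultures, so fewer cells in a given state and less RNA per cell in that state cannot be told apart.

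Itraconazole is an azole antifungal drug. Azoles bind the lanosterol demethylase CYP51A1, an enzyme on the path from mevalonate to cholesterol, and itraconazole is also known to hinder cholesterol traffic out of lysosomes and signalling through the Hedgehog pathway. Cells that sense low sterol in the endoplasmic reticulum release SREBP2, a transcription factor that turns on cholesterol synthesis and uptake, while a rise in oxysterols turns on the LXR receptors and cholesterol export. Colorectal cancer cells keep parts of the programme of the crypt, in which Wnt signals hold cells in division and loss of Wnt goes with maturation to absorptive colonocytes or to goblet cells. The gene lists described below cover these programmes, the cell cycle and the main stress responses.

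The libraries held 8269406 to 11110814 counts in genes. After a filter on low counts 13249 genes of 54127 identifiers were tested, and 11749 of them reached 1 CPM (counts scaled to the size of the library) or more in at least 1 group of each line. On plain library totals all 9 markers of colorectal epithelium listed were at 68.3 CPM or more in every library. Of 15 markers of blood, stromal, endothelial and muscle cells, CD3E and COL3A1 had no count in any library, and the summed level of the 15, also on plain totals, ran from 32.5 to 38.5 CPM in HT55 controls and 28.8 to 61.8 CPM in treated HT55, and from 369 to 439.6 CPM in SW948 controls and 194 to 234 CPM in treated SW948. Most of the SW948 sum was LYZ, lysozyme, which Paneth cells of the gut also make and which rose by 1.41 in HT55 and fell by 1.54 in SW948 on the log2 scale. The part of these genes in the results was not tested. HT55 itraconazole replicate 3 stood apart from its group, at 13.3 on the second principal component against 33.8 to 46.8 for the other 3 treated HT55 libraries and -17.0 to -16.0 for the HT55 controls. Without it 7218 genes had a called interaction instead of 7141. SW948 itraconazole replicate 1 was the lowest of its group on that component, at 40.3 against 51.2 to 64.2. Without this SW948 library 7393 genes were called. All other levels per library are CPM after TMM scaling, and fold changes depend on that scaling: with plain library totals the median over all genes moved from -0.0053 to -0.17 in HT55, from 0 to -0.36 in SW948, and from -0.041 to -0.23 for the interaction (log2). A called response or a list's median interaction whose direction turned with plain totals is named as such. Some small rises in either line lost their call there. List medians within 1 line turned in further lists and are not always named. The SW948 median of NF-kB targets went from 0.21 to -0.15, and the HT55 median of the unfolded protein response from 0.10 to -0.064. Values that did not pass the test may also turn sign there, which is not always stated.

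The 2 lines differed in how 7141 of 13249 genes responded, at an adjusted p below 0.05 by edgeR's quasi-likelihood test, which is 53.9% of the genes tested. The response was higher in SW948 for 3292 genes (24.8%) and lower for 3849 (29.1%). With plain totals 7224 genes were called, and the split was 2295 higher against 4929 lower. SW948 responded more widely: 10113 genes (76.3%) passed the test in SW948 and 7094 (53.5%) in HT55, and the median absolute log2 fold change over all genes was 0.672 in SW948 and 0.358 in HT55. Across the 11749 genes measured in both lines the responses had a Spearman correlation of 0.613 and a Pearson correlation of 0.62, given as a description over genes, which are not independent.

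The called genes were sorted by what each line did. Both responses passed the test in the same direction with unequal size in 2395 genes, 20.4% of those measured in both lines, and SW948 had the larger response in 2171 of them. This count leaves out genes that passed in both lines but met the rule for 1 line only, given below. Opposite responses, each past the test, were found in 795 genes (6.77%): 443 rose in HT55 while falling in SW948, and 352 did the reverse. In 196 of the 795 both responses were 0.5 or more on the log2 scale. A response was placed in 1 line only where it was at least 1 on the log2 scale there and the 95% interval of the other line's response lay within -0.5 to 0.5, where it may still pass the test. By that rule 541 genes (4.6%) responded in SW948 only, 218 upwards and 323 downwards, and 33 genes (0.281%) in HT55 only, 26 upwards and 7 downwards. Of the remaining called genes, 3071 did not meet the rule of any class and 306 were below 1 CPM in a line. The counts of list members given below stand against these shares: 24.8% higher and 29.1% lower in SW948 over all genes tested, and 6.77% opposite over those measured in both lines. A larger response in SW948 among members that moved the same way stands against the 2171 of 2395 genes above. Counts of members that rose or fell within 1 line stand against all genes that passed there. In HT55 7094 of 13249 passed, of which 3632 rose, and in SW948 10113 passed, of which 5033 rose. On plain totals the genes that rose were 2468 of 7495 in HT55 and 3178 of 10155 in SW948. For 9 of the 44 lists both the higher and the lower share lay within 10 percentage points of those over all genes, so their counts are no result about the list: Wnt targets, goblet and secretory genes, the bile acid axis, the nuclear respiratory chain, ERK feedback, ribosome biogenesis, laminins and integrins, SR splicing factors and the zinc finger genes of chromosome 19.

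These classes moved with the scaling and with single libraries. Of the 795 opposite genes 344 were also opposite on plain totals, and of the 196 with the larger responses 150 were. Of the 541 genes of SW948 only, 176 kept that class on plain totals, and of the 33 of HT55 only 10 did. Without HT55 itraconazole replicate 3, 698 of the 795, 395 of the 541 and 32 of the 33 kept their class, and the number of genes of HT55 only rose to 64. Without SW948 itraconazole replicate 1 there were 883 opposite genes and 684 of SW948 only. The gene span on GRCh37, which no rule used, had a median of 48.6 kb for opposite genes that rose in HT55 and 27.2 kb for those that rose in SW948, against 31.7 kb for all genes tested.

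**Figure D1:**
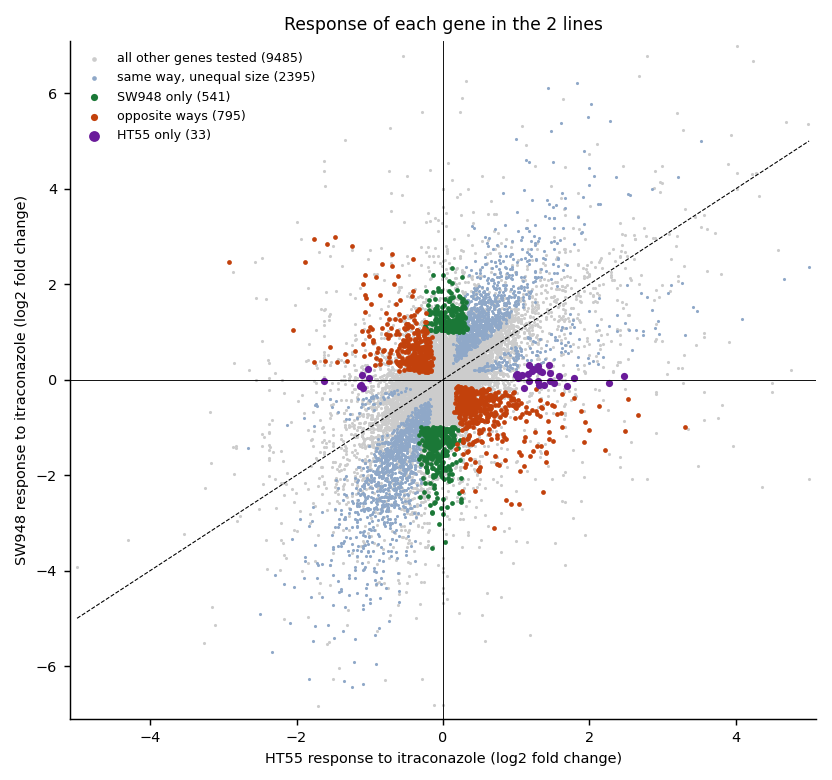
Log2 fold change of itraconazole against DMSO in HT55 (horizontal axis) and SW948 (vertical axis) for each of the 13249 genes tested, with colours for the classes and the dashed line at equal responses; points beyond the axes are drawn at their edge. The 795 opposite genes lie to the upper left and lower right of the origin, the 541 genes of SW948 only along the vertical axis, and the 33 genes of HT55 only along the horizontal axis.

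The largest opposite response among the genes named here was that of FGF19 (chromosome 11, 69513006 to 69518790, minus strand; all coordinates are GRCh37), a hormone that the gut releases on contact with bile acids. It stood at 30.3, 30.1, 33.6 and 27.6 CPM in the HT55 controls and 3.33, 3.31, 6.0 and 3.11 CPM in treated HT55, against 1.85, 1.80, 1.48 and 2.08 CPM in the SW948 controls and 9.52, 10.1, 10.8 and 9.72 CPM in treated SW948. Treated libraries lay below all controls in HT55 and above all controls in SW948, and HT55 replicate 3 was the highest of the treated HT55 libraries. HT55 fell by 2.92 ± 0.16 (log2, SE) and SW948 rose by 2.46 ± 0.19, with an interaction of 5.38 ± 0.24 (adjusted p = 3.7e-11, edgeR's quasi-likelihood test). Without HT55 itraconazole replicate 3 the HT55 value was -3.22. Of the 6 tested genes of the bile acid axis FGF19 was the opposite one. Its receptor FGFR4 rose in both lines, by 0.83 in HT55 and 0.56 in SW948, and the bile acid exporter ABCC3 met the rule for SW948 only, at -1.08 against -0.18 in HT55, though on plain totals it counted as falling in both. In all 2 of the 6 were higher and 2 lower in SW948, or 1 and 3 on plain totals.

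Among opposite genes whose mean log2 CPM reached 3 in each line and no overlap between treated and control libraries in either line, 448 in all, 195 were higher in SW948 and 253 higher in HT55. The 6 with the largest interaction in each direction are described here, so their lack of overlap and large interactions follow from the choice. ARRDC3 (chromosome 5, 90664448 to 90679134, minus strand), an alpha-arrestin that takes membrane proteins such as beta-adrenergic receptors into endosomes, had the largest interaction of those that rose in SW948. It was at 45, 42, 43.3 and 47 CPM in HT55 controls and 17.1, 15, 8.0 and 7.83 CPM after treatment, and at 5.30, 4.83, 1.65 and 5.47 CPM in SW948 controls and 19, 28.4, 23.5 and 25 CPM after treatment. All treated HT55 libraries were below, and all treated SW948 libraries above, their controls, and the third SW948 control was the lowest of its group. The responses were -1.90 ± 0.23 and 2.46 ± 0.26 (log2, SE), and the interaction was 4.35 ± 0.35 (adjusted p = 1.4e-08, edgeR). Its relative ARRDC4, which follows glucose metabolites through the factor MondoA, had the reverse pattern at 0.32 in HT55 and -0.69 in SW948, though on plain totals its HT55 response was 0.15 and it counted as SW948 only. Of the 9 tested genes of MondoA and the alpha-arrestins 4 were higher and 2 lower in SW948, or 4 and 4 on plain totals.

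TPPP (chromosome 5, 659977 to 693467, minus strand), which bundles microtubules, followed. Its HT55 libraries stood at 18, 20.5, 18.5 and 18 CPM with DMSO and 13.7, 14.5, 8.47 and 9.94 CPM with itraconazole, and its SW948 libraries at 3.77, 4.35, 4.69 and 6.01 CPM and 23.7, 31, 34.2 and 29.1 CPM. Groups did not overlap in either line, and the interaction was 3.33 ± 0.23 (SE; adjusted p = 3.2e-09, edgeR). TRIM47 (chromosome 17, 73870245 to 73874662, minus strand), a ubiquitin ligase of the tripartite motif family, fell a little in HT55 and rose steeply in SW948. Its values were 44.8, 40.4, 40.9 and 40.2 CPM and 31.6, 28.3, 32.8 and 32.3 CPM in HT55 without and with drug, and 4.17, 3.98, 6.43 and 4.16 CPM and 25.5, 25.4, 35.2 and 22.4 CPM in SW948. The log2 fold changes were -0.41 in HT55 and 2.53 in SW948. MYADM, a membrane protein of lipid rafts, went from a mean of 53.1 to 33.3 CPM in HT55 and from 30.6 to 123 CPM in SW948. ARID5A, an RNA-binding protein that keeps inflammatory mRNAs stable, had responses of -1.54 in HT55 and 0.68 in SW948, and on plain totals its SW948 response was 0.31 and no longer made it opposite. CISH, an inhibitor of cytokine signalling through STAT5, had responses of -0.60 in HT55 and 1.37 in SW948.

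Those that went up in HT55 and down in SW948 began with SLC6A20 (chromosome 3, 45796941 to 45838066, minus strand), a proline transporter of the intestinal brush border. Controls of HT55 had 12.6, 13, 11 and 11.6 CPM and treated HT55 56.2, 80.0, 57.4 and 85.1 CPM, while controls of SW948 had 161, 172, 214 and 162 CPM and treated SW948 153, 120.2, 131 and 127 CPM. HT55 thus rose towards the level of SW948, which fell by 0.41 on the log2 scale, and the interaction was -2.94 ± 0.19 (SE; adjusted p = 1.3e-09, edgeR). FRMD3 (chromosome 9, 85857905 to 86153461, minus strand), a protein of the cell cortex, ran at 8.88, 8.54, 9.02 and 8.90 CPM and then 19.6, 19.6, 17.6 and 18.9 CPM in HT55, and at 35.6, 40.5, 45.4 and 39.8 CPM and then 12, 12, 11.3 and 10.8 CPM in SW948. Its libraries were tightly grouped and gave 1.10 ± 0.099 in HT55 and -1.80 ± 0.092 in SW948. THBS1 (chromosome 15, 39873280 to 39891667, plus strand), thrombospondin, an adhesive matrix protein that restrains vessel growth, had 93.6, 77.2, 81.8 and 81.9 CPM in HT55 controls and 378, 450.3, 215 and 420.2 CPM in treated HT55. The third treated library was the lowest of these and still above every control. In SW948 THBS1 had 34, 34.3, 31.1 and 32.6 CPM with DMSO and 19.8, 27.2, 27.4 and 16.7 CPM with itraconazole, and its interaction was -2.67 ± 0.25, or -2.87 without HT55 itraconazole replicate 3.

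The other three of that group were the signalling adaptor ARRB1, beta-arrestin, at 1.19 in HT55 and -1.60 in SW948 (log2 fold change), RETREG1, a receptor for autophagy of the endoplasmic reticulum, at 1.28 in HT55 and -1.40 in SW948, and GGT6, of the gamma-glutamyltransferase family, at 1.06 in HT55 and -1.57 in SW948. Each kept its call and its opposite class on plain totals and without HT55 itraconazole replicate 3, where the HT55 rise of GGT6 was 0.69.

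**Figure D2:**
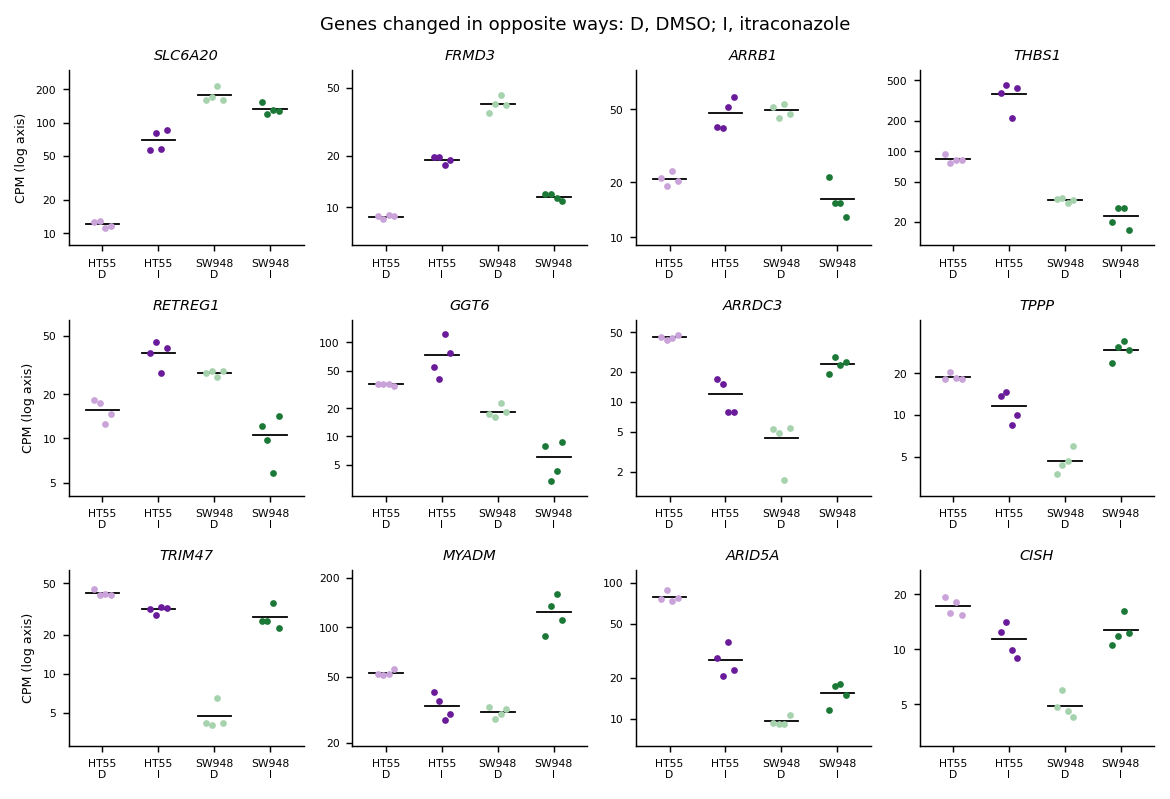
CPM after TMM scaling (log axis) of the 12 named genes changed in opposite ways, with 1 point per library, 4 libraries per group and a bar at the group mean; D is DMSO and I is itraconazole. In the first 6 panels the treated libraries lie above the controls in HT55 and below them in SW948. In the last 6 it is the other way round. The choice of these genes required this separation.

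Genes that responded in SW948 only were led on the falling side by PPP3CA and CFTR. PPP3CA (chromosome 4, 101944566 to 102269435, minus strand) is the catalytic subunit of the phosphatase calcineurin. It was at 34.2, 35, 34.6 and 32.3 CPM in HT55 controls and 24.1, 31.3, 34.2 and 33.3 CPM in treated HT55, which overlap, and at 46.5, 51.4, 50.0 and 49 CPM in SW948 controls and 4.41, 3.74, 3.69 and 5.20 CPM in treated SW948. HT55 had a log2 fold change of -0.15 ± 0.10 (SE), which did not pass, and SW948 one of -3.52 ± 0.12. On plain totals the HT55 value was -0.31 and passed the test, so that PPP3CA then fell in both lines. CFTR (chromosome 7, 116927174 to 117356025, plus strand), the chloride channel that drives fluid secretion in the crypt, stood at 22.2, 24.6, 20.3 and 22.3 CPM and 22.4, 20.1, 24.6 and 24 CPM in HT55 without and with drug. In SW948 it had 110.4, 118, 119.6 and 110.5 CPM with DMSO and 18, 7.48, 6.87 and 9.72 CPM with itraconazole. The SW948 response was -3.41 ± 0.18 and the interaction -3.44 ± 0.25 (adjusted p = 5.4e-09, edgeR). EMC10, of the complex that inserts membrane proteins, and KAT14, a histone acetyltransferase subunit, fell by 2.78 and 2.79 in SW948, with HT55 values of -0.14 and -0.16. Without HT55 itraconazole replicate 3, EMC10, KAT14 and the rising KCNMB4 no longer met the rule for SW948 only, and on plain totals neither did CFTR, EMC10 or KAT14.

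On the rising side of SW948 only stood KCNMB4, a subunit of calcium-activated potassium channels, SCML1, a Polycomb-type protein, HSPG2 and GTF2IRD1. HSPG2 (chromosome 1, 22148737 to 22263803, minus strand) is perlecan, the heparan sulfate proteoglycan of basement membranes. Its HT55 libraries were at 210.1, 188, 177 and 197 CPM with DMSO and 251, 266, 184 and 219 CPM with itraconazole, and its SW948 libraries at 20.5, 23.4, 23.9 and 20.4 CPM and 92.2, 104, 103 and 91 CPM. The response was 2.15 ± 0.11 in SW948 and 0.25 ± 0.095 in HT55, where it was below 0.5 but passed the test (adjusted p = 0.030, edgeR), and without HT55 itraconazole replicate 3 the gene counted as rising in both lines. GTF2IRD1 (chromosome 7, 73868120 to 74016931, plus strand), a relative of the transcription factor TFII-I, had 137, 138, 132 and 128 CPM and 127, 118, 132 and 135 CPM in HT55, and 67.5, 68, 65.8 and 64.9 CPM and 206, 283, 283 and 242 CPM in SW948. The treated SW948 libraries were all far above their controls, and the HT55 groups overlapped. This gene has partial copies nearby, so its level is uncertain. Plain totals gave -0.24 in HT55, which made it and SCML1 opposite genes there. KCNMB4 had responses of 0.13 in HT55 and 2.33 in SW948, and SCML1 of -0.14 in HT55 and 2.19 in SW948.

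Only 33 genes met the rule for HT55 only, and several that rose in HT55 stood higher in SW948 controls than in HT55 controls: LGR4, THSD4, PAPSS2, SLCO2B1, SOAT1, EGFR and CTSD all did. The rule asks for a narrow interval in SW948, which favours genes well counted there. The higher level is therefore no result about these genes. The median level of the 33 was 4.09 log2 CPM in HT55 and 5.29 in SW948, against 4.68 and 4.66 for all genes tested. LGR4 (chromosome 11, 27387508 to 27494337, minus strand), a receptor for R-spondins that strengthens Wnt signals, was at 34.7, 36.8, 34.3 and 34.4 CPM in HT55 controls and 99.2, 116, 64.4 and 106 CPM in treated HT55. SW948 had 186, 205, 188 and 186 CPM with DMSO and 203, 180.1, 167 and 197 CPM with itraconazole, which overlap. The HT55 response was 1.46 ± 0.13 (SE), and on plain totals SW948 fell by 0.39 and LGR4 was opposite. THSD4 (chromosome 15, 71389291 to 72075722, plus strand), a protein of microfibrils, had 7.04, 7.21, 5.73 and 9.61 CPM and 42.8, 55.5, 21.1 and 45.1 CPM in HT55 and 59.7, 62.6, 64 and 62.2 CPM and 81.4, 57.8, 49.9 and 71.3 CPM in SW948. The HT55 response was 2.47 ± 0.24 with an interaction of -2.40 ± 0.31 (adjusted p = 3.0e-06, edgeR). PAPSS2, which makes the sulfate donor PAPS, rose by 1.52 in HT55 from a mean of 7.79 to 22.4 CPM, and had means of 193 and 184 CPM in SW948. SLCO2B1, an organic anion uptake transporter, rose by 1.79 in HT55, with 0.024 in SW948. CIRBP, a cold-inducible RNA-binding protein, and NIPSNAP3A fell by 1.12 and 1.01 in HT55, with -0.12 and 0.025 in SW948. On plain totals THSD4, SLCO2B1, CIRBP and NIPSNAP3A left the class and PAPSS2 was opposite. The receptor EGFR also met the rule, with 1.17 in HT55 and 0.31 in SW948, where the smaller rise passed the test too but was below 0 on plain totals, without passing.

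**Figure D3:**
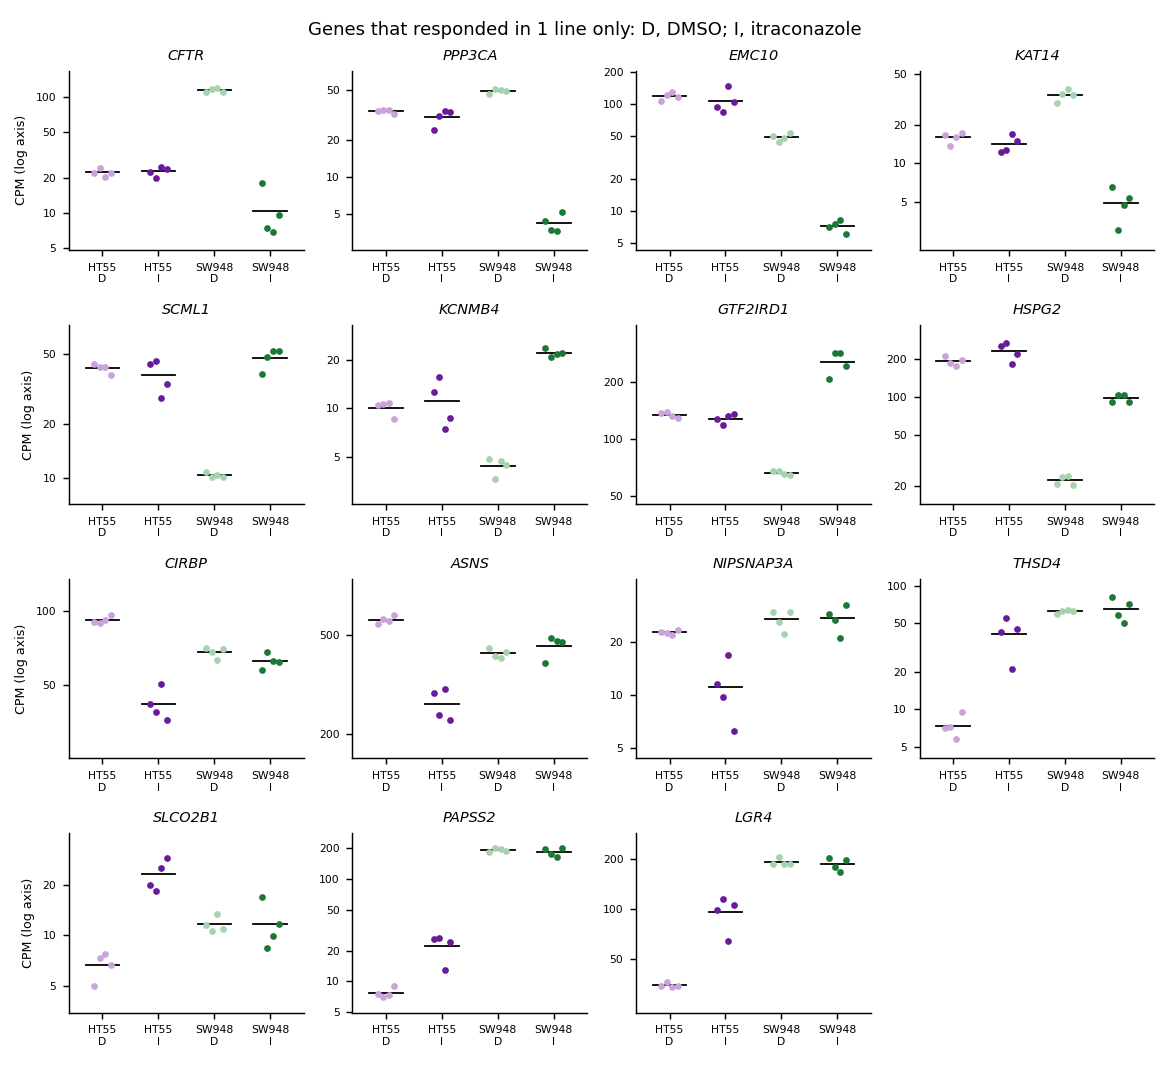
CPM after TMM scaling (log axis) of 15 genes that responded in 1 line only, with 1 point per library, 4 libraries per group and a bar at the group mean; D is DMSO and I is itraconazole. The first 8 panels move in SW948 while HT55 overlaps, and the last 7 move in HT55 while SW948 overlaps.

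Cholesterol synthesis answered in both lines and by far more in SW948. Of 20 enzymes of sterol synthesis 16 had a higher response in SW948 and 1 a lower one, against 24.8% and 29.1% of all genes, and the median log2 fold change was 0.75 in HT55 and 2.42 in SW948. Every called member moved the same way in both lines. SW948 had the larger response in these 17, against 2171 of the 2395 genes changed the same way with unequal size. HMGCS1 (chromosome 5, 43287572 to 43313614, minus strand), which makes HMG-CoA at the head of the mevalonate pathway, stood at 68.3, 70.2, 75.3 and 70.7 CPM in HT55 controls and 146, 207, 98.7 and 164 CPM in treated HT55. It stood at 62, 61, 61.2 and 58.7 CPM in SW948 controls and 756, 979.7, 1010 and 1060 CPM in treated SW948. Treated libraries were above their controls in both lines, and the treated SW948 libraries were far above all others. The interaction was 2.86 ± 0.21 (SE; adjusted p = 6.1e-09, edgeR). MSMO1, which removes methyl groups just after the step blocked by azoles, rose by 1.93 in HT55 and 4.80 in SW948. CYP51A1, the azole target itself, rose by 0.63 in HT55 and 2.96 in SW948, with an interaction of 2.34 ± 0.19. The squalene epoxidase SQLE rose by 1.63 in HT55 and 3.90 in SW948. PMVK, phosphomevalonate kinase, fell in both lines, by 0.91 and 1.65. LSS and TM7SF2 had no called interaction, at -0.13 ± 0.21 and -0.19 ± 0.21.

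Regulators of sterol supply were split. Of 17 tested, 9 were higher in SW948 (52.9%, against 24.8% of all genes) and 6 lower (35.3%, against 29.1%), and 2 were opposite. INSIG1 (chromosome 7, 155089486 to 155101945, plus strand), a sterol-induced brake that holds SREBP in the endoplasmic reticulum and is itself an SREBP target, had 124, 118, 138 and 115 CPM in HT55 controls and 414, 541, 337 and 476 CPM after drug. In SW948 it went from 32.6, 34.2, 50.2 and 33 CPM to 1763, 3244, 3345 and 2726 CPM, with an interaction of 4.38 ± 0.26 (SE; adjusted p = 7.8e-10, edgeR). NPC1L1, which takes cholesterol up at the brush border, was at 3 counts over the 4 SW948 controls and 182 over the 4 treated libraries, a ratio of 65.2 with a 95% counting interval of 22 to 319. The lysosomal cholesterol exporter NPC1 rose in both lines, more in SW948, with an interaction of 1.32. SCAP, the escort of SREBP, had responses of 0.24 in HT55 and -0.53 in SW948, and MBTPS2, a protease that cuts it free, met the rule for SW948 only, at -1.85 against -0.15 in HT55. SREBF1, the gene of SREBP1, was opposite at -0.42 in HT55 and 0.52 in SW948, while SREBF2, that of SREBP2, rose by 0.67 in HT55 and 1.61 in SW948. On plain totals SCAP and SREBF1 were not opposite, and MBTPS2 fell in both lines.

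SOAT1 and most LXR targets had the higher response in HT55. SOAT1 (chromosome 1, 179262849 to 179327815, plus strand), which esterifies cholesterol for storage, was at 2.38, 2.37, 2.12 and 3.32 CPM in HT55 controls and 6.89, 6.96, 8.57 and 10.4 CPM in treated HT55, and at 18, 19.5, 18.3 and 18.4 CPM and 18.9, 16.4, 14.8 and 17.1 CPM in SW948. HT55 groups were apart and SW948 groups overlapped. The response was 1.69 ± 0.17 (SE) in HT55 and -0.14 ± 0.12 in SW948, and on plain totals SW948 fell by 0.50. Of 7 tested genes of the LXR list, which holds the receptor NR1H2 beside targets, 6 were lower in SW948, NR1H2 among them. The other, ABCG1, was higher, a call it lost on plain totals and without HT55 itraconazole replicate 3. The lipid exporter ABCA3 rose by 1.98 in HT55 and 0.45 in SW948, where the value was 0.095 on plain totals and did not pass. ABCA1, the main exporter of cholesterol, rose by 0.69 in HT55 (adjusted p = 0.044, edgeR), which did not pass on plain totals or without HT55 itraconazole replicate 3, and had -0.68 in SW948 (adjusted p = 0.086). LXR-beta itself, NR1H2, was opposite at 0.22 in HT55 and -0.62 in SW948, a class it lost on plain totals. Fatty acid synthesis followed sterol synthesis, with 7 of 14 members higher and 1 lower in SW948: the acetyl-CoA synthetase ACSS2 rose by 0.61 in HT55 and 2.79 in SW948, and the elongase ELOVL5 by 0.76 in HT55 and 2.51 in SW948.

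**Figure D4:**
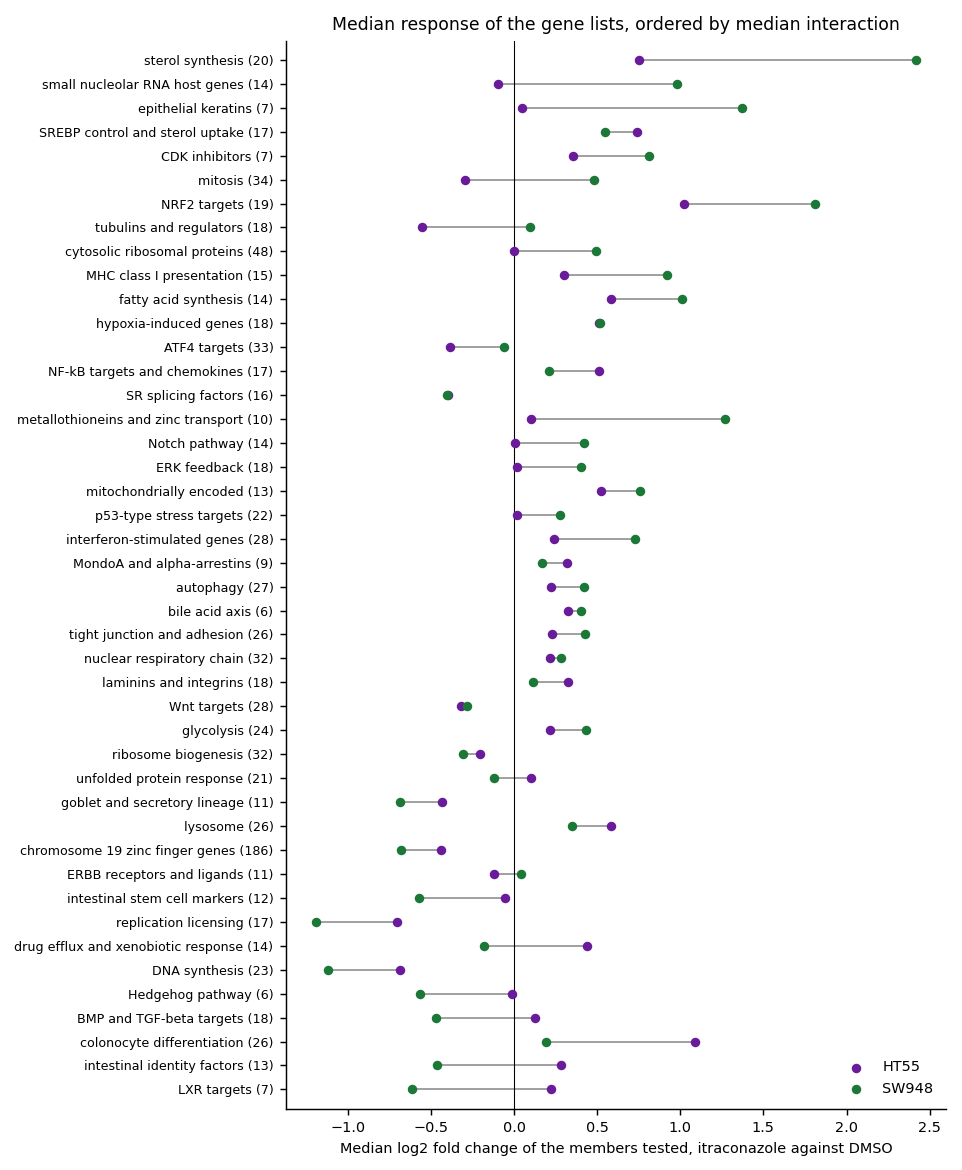
Median log2 fold change of itraconazole against DMSO in HT55 and SW948 (horizontal axis) over the tested members of each gene list, with the number of members in brackets and lists ordered by their median interaction, which is the median of differences and not the difference of medians. Lists with medians on opposite sides of 0 include mitosis, in the upper part, and intestinal identity factors, near the bottom. Several medians near 0 turned sign with plain totals.

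Cell cycle genes of replication fell in both lines, while those of mitosis had a higher response in SW948. Genes that license and copy DNA fell in both, more in SW948: of 17 licensing genes 16 fell in HT55 and 15 in SW948, 8 had a lower and 2 a higher response in SW948, and of 23 DNA synthesis genes 20 fell in each line, with 14 lower and 3 higher in SW948. CDC45 (chromosome 22, 19466980 to 19508135, plus strand), part of the helicase that opens the replication fork, was at 13.4, 12.5, 11.6 and 14.1 CPM in HT55 controls and 5.34, 4.84, 8.57 and 6.34 CPM in treated HT55. In SW948 it was at 14.8, 16.1, 15 and 16.1 CPM and then 1.0, 1.29, 1.53 and 1.36 CPM, with no overlap in either line. The responses were -1.02 ± 0.15 and -3.59 ± 0.19 (SE), with an interaction of -2.56 ± 0.25 (adjusted p = 1.5e-07, edgeR). POLA1, the primase-bound polymerase, fell by 0.75 and 2.69, in HT55 and SW948. GINS2, of the same helicase as CDC45, had -1.09 in HT55 and -3.20 in SW948. Among the exceptions were ORC1, which binds origins, at -0.64 in HT55 and 0.11 in SW948, and RFC1, of the clamp loader, at 0.026 in HT55 and 0.56 in SW948. On plain totals the SW948 value of ORC1 was -0.26 and the HT55 value of RFC1 -0.15, neither passing. Without HT55 itraconazole replicate 3 the median interaction of the licensing list moved from -0.47 to -0.25. Among members changed the same way with unequal size, SW948 had the larger response in 8 licensing and 12 synthesis genes, and HT55 in 1 synthesis gene. Over all genes SW948 had it in 2171 of 2395.

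Mitosis genes mostly fell in HT55 and rose in SW948. Of 34 tested, 19 fell and 1 rose in HT55, whereas 21 rose and 7 fell in SW948. The interaction was higher in SW948 for 25 and lower for 3, 9 were opposite against 6.77% of the genes measured in both lines, and 5 responded in SW948 only. The median was -0.29 in HT55 and 0.48 in SW948. On plain totals 27 fell in HT55, and SW948 had 15 that rose and 13 that fell, with medians of -0.46 and 0.12. AURKB (chromosome 17, 8108051 to 8113918, minus strand), the kinase that corrects chromosome attachment, was at 42.9, 42.7, 44.5 and 44.5 CPM in HT55 controls and 27.9, 29.9, 25.7 and 20.5 CPM in treated HT55, and at 29.1, 25.5, 28.2 and 27.1 CPM and 55.5, 52.4, 48.6 and 55 CPM in SW948. Groups were apart in both lines, in opposite order, and the interaction was 1.69 ± 0.13 (SE; adjusted p = 9.5e-09, edgeR). NEK2 (chromosome 1, 211831999 to 211848972, minus strand), which splits the centrosomes, had 103, 101, 107 and 98.2 CPM and 90.4, 131, 72.4 and 85.2 CPM in HT55, which overlap, and 51.2, 44.5, 39.6 and 47.6 CPM and 147, 146, 137 and 163 CPM in SW948. It responded in SW948 only, at 1.69 ± 0.13, though HT55 fell by 0.29 on plain totals and by 0.31 without HT55 itraconazole replicate 2, both of which passed, and on plain totals it was opposite. The other opposite members were the cyclins CCNB1 (-0.35 in HT55 and 0.48 in SW948) and CCNB2 (-0.35 in HT55 and 0.73 in SW948), their kinase CDK1 (-0.23 in HT55 and 0.49 in SW948), the kinases PLK1 (-0.36 in HT55 and 0.48 in SW948) and TTK (-0.31 in HT55 and 0.41 in SW948), and the spindle proteins KIF23, TPX2 and PRC1, with interactions of 0.72, 0.97 and 1.27. On plain totals 4 of the 9 were still opposite, AURKB, CCNB2, TPX2 and PRC1, and the SW948 value of KIF23 was below 0 without passing. Without HT55 itraconazole replicate 3, CCNB1 and CDK1 were not opposite. MKI67, the proliferation marker, and FOXM1, a factor that drives mitosis genes, fell in both lines and more in SW948, MKI67 by 0.30 in HT55 and 0.89 in SW948 and FOXM1 by 0.41 in HT55 and 1.29 in SW948. CENPE, a kinetochore motor, was the third with a lower response in SW948, at -0.45 ± 0.18, a call that 11 of the 16 libraries ended when left out.

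**Figure D5:**
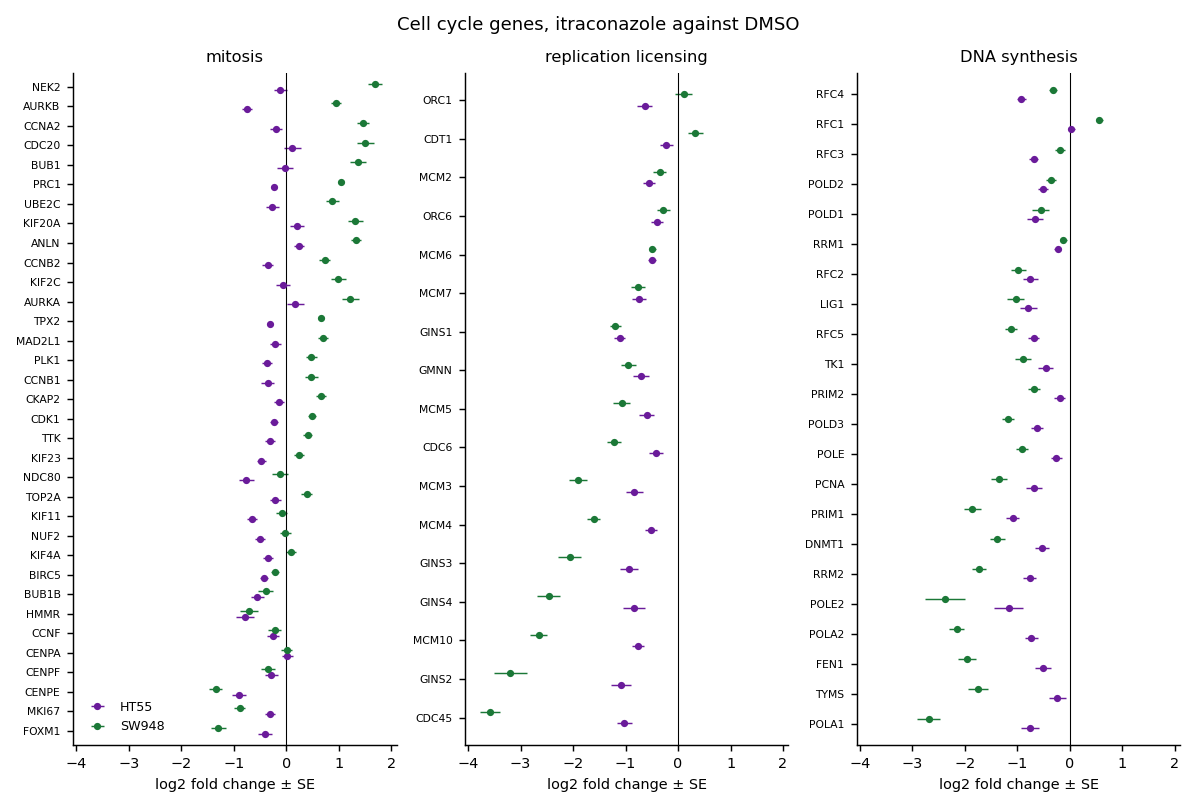
Log2 fold change of itraconazole against DMSO (horizontal axis) with its standard error for tested members of the mitosis, replication licensing and DNA synthesis lists in HT55 and SW948, from 4 libraries per group. SW948 points lie to the right of HT55 for 25 called mitosis genes and to the left for most licensing and synthesis genes.

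Promoters of replication and mitosis genes also differed in their letters, which no rule used. In windows from 250 bases before to 50 bases after the RefSeq start (GRCh38.p14), the E2F-type motif TTTNNCGC was found on either strand in 21 of 35 promoters of licensing and synthesis genes (60%), in 3 of 28 of mitosis genes (10.7%) and in 10.5% of the 10112 promoters of genes tested. The shares were 10.1% for opposite genes that rose in HT55 and 13.1% for those that rose in SW948. A match is a string of letters and not a shown binding site. The following 30-base stretches from replication genes that fell in both lines are shown 5′ to 3′ on the gene's strand, to let the match be read, with the match in capitals.
POLA1 (chrX:24693770-24693799, plus strand): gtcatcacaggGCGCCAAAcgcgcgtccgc
POLA2 (chr11:65261898-65261927, plus strand): ttggctcccggTTTCGCGCatgcgtgcact
PCNA (chr20:5126663-5126692, minus strand): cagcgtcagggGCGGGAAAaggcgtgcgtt
MCM3 (chr6:52284898-52284927, minus strand): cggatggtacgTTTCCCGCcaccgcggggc
GINS2 (chr16:85688967-85688996, minus strand): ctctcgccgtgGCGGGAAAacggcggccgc

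Inhibitors of cyclin-dependent kinases, which hold cells out of the cycle, had a higher response in SW948 in 5 of 7 tested and a lower one in 1. CDKN1C (chromosome 11, 2904443 to 2907005, minus strand), p57, was at 8.77, 7.31, 9.02 and 7.95 CPM in HT55 controls and 18.4, 18.3, 18.8 and 18.9 CPM in treated HT55, against 2.73, 2.37, 2.35 and 1.85 CPM in SW948 controls and 36.1, 61, 75.6 and 47.1 CPM in treated SW948. It rose in both, by 1.17 ± 0.18 and 4.55 ± 0.20 (SE), with an interaction of 3.39 ± 0.28 (adjusted p = 2.1e-08, edgeR). CDKN2D, p19, had 0.35 in HT55 and 2.19 in SW948, and CDKN1A, p21, 0.49 in HT55 and 1.60 in SW948, with HT55 rises of 0.18 and 0.32 on plain totals that did not pass. CDKN2B (chromosome 9, 22002902 to 22009304, minus strand), p15, which blocks CDK4 and CDK6, was opposite, with 1.41, 1.85, 3.18 and 1.90 CPM and 6.18, 5.55, 4.76 and 8.33 CPM in HT55 and 37.2, 36.4, 33.4 and 36.9 CPM and 21.2, 24.1, 23.3 and 18.5 CPM in SW948. Treated libraries were above the controls in HT55 and below them in SW948, and the interaction was -2.27 ± 0.26. Of 22 stress genes of the p53 type 11 were higher and 6 lower in SW948, or 7 and 9 on plain totals, and 4 were opposite: BTG2, an antiproliferative gene, at -0.37 in HT55 and 1.18 in SW948, SESN1 at -0.60 in HT55 and 0.30 in SW948, ZMAT3 at 0.95 in HT55 and -0.38 in SW948 and MDM2, the ligase of p53, at 0.32 in HT55 and -0.38 in SW948. On plain totals SESN1, whose SW948 value was then below 0, and MDM2 were not opposite. GDF15, a stress hormone, rose in both with an interaction of 0.89 ± 0.25. PHLDA3, an inhibitor of AKT, rose by 4.66 in HT55 and 2.11 in SW948, and had 8 counts in the 4 HT55 controls together. The list's medians of 0.018 and 0.28 turned negative in both lines on plain totals, at -0.15 and -0.086.

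Colonocyte genes rose in HT55 and were divided in SW948. Of 26 tested, 20 rose in HT55 and the other 6 did not pass, while 12 rose and 9 fell in SW948. The interaction was lower in SW948 for 15 (57.7%, against 29.1% of all genes) and higher for 1, and 7 were opposite. The median response was 1.09 in HT55 and 0.19 in SW948, which turned to -0.17 on plain totals. SLC26A3 (chromosome 7, 107405912 to 107443670, minus strand), the chloride-bicarbonate exchanger of mature colonocytes, was at 599, 573, 501 and 521 CPM in HT55 controls and 6604, 7159, 7267 and 8711 CPM in treated HT55. In SW948 it was at 3.45, 2.93, 14 and 2.08 CPM and 3.61, 3.48, 1.91 and 3.50 CPM, where the third control was the high one and the groups overlap. HT55 rose by 3.76 ± 0.27 (SE), SW948 had -0.81 ± 0.46 (adjusted p = 0.12, edgeR), and the interaction was -4.57 ± 0.52 (adjusted p = 6.9e-07). Without the third SW948 control the interaction was -3.60 and the SW948 value 0.16, and on plain totals SW948 fell by 1.17, which passed. Opposite members were the sulfate transporter SLC26A2 (1.41 in HT55 and -1.73 in SW948), the fatty acid carrier FABP1 (0.93 in HT55 and -2.60 in SW948, from 136 and 16 counts in SW948), carbonic anhydrase CA12 (0.66 in HT55 and -0.73 in SW948), the guanylin receptor GUCY2C (0.39 in HT55 and -0.85 in SW948), and the brush border proteins VIL1 (0.19 in HT55 and -0.60 in SW948) and CDHR5 (0.36 in HT55 and -1.15 in SW948), beside SLC6A20 above. On plain totals 4 of the 7 were still opposite, and GUCY2C, VIL1 and CDHR5 were not. KRT20, the keratin of surface colonocytes, rose in both lines, more in HT55, with 1.14 in HT55 and 0.40 in SW948, but on plain totals the SW948 value was 0.038 and did not pass. CEACAM5 and EMP1 rose in both lines, with interactions of 0.51 ± 0.27 and -0.039 ± 0.18 that did not pass.

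Transcription factors of intestinal identity followed the same division. Of 13 tested 8 were lower and 1 higher in SW948, or 9 and 0 on plain totals, 4 were opposite, and the medians were 0.28 in HT55 and -0.47 in SW948. On plain totals the HT55 rises of these 4 did not pass, and they were not opposite. CDX2 (chromosome 13, 28535055 to 28543452, minus strand), the homeobox factor of the gut, was at 269, 258, 297 and 245 CPM in HT55 controls and 358, 347, 367 and 376 CPM in treated HT55. SW948 controls had 196, 192, 227 and 197 CPM and treated SW948 164, 97.8, 78.5 and 108 CPM. The lines moved apart with no overlap, by 0.44 ± 0.14 and -0.85 ± 0.14 (SE), and the HT55 rise was 0.27 on plain totals, where it did not pass. VDR (chromosome 12, 48235320 to 48336831, minus strand), the vitamin D receptor, had 135, 133, 140.3 and 140.0 CPM and 157, 160.0, 178 and 187 CPM in HT55, and 67.8, 66.5, 68.7 and 64.3 CPM and 26.8, 16.3, 17.2 and 17.5 CPM in SW948. Its SW948 fall of 1.77 made most of the interaction of -2.09 ± 0.15 (adjusted p = 4.7e-09, edgeR). ISX, which curbs vitamin A uptake, had 0.50 in HT55 and -1.92 in SW948. Of 11 goblet and secretory genes 6 fell in each line and 2 were higher and 3 lower in SW948, or 1 and 3 on plain totals, with medians of -0.43 and -0.69: the trefoil peptide TFF3 by 1.42 in HT55 and 2.91 in SW948 and the mucin sialyltransferase ST6GALNAC1 by 0.99 in HT55 and 3.69 in SW948. MUC2, the goblet mucin, had 0.379 CPM in HT55 controls and no called interaction, at 0.77 ± 0.48.

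The Hedgehog pathway, a known target of itraconazole, had 6 tested members, of which 3 were lower and 1 higher in SW948. IHH (chromosome 2, 219919146 to 219925643, minus strand), the ligand that colonocytes send to the stroma, was at 114, 102, 114 and 101 CPM in HT55 controls and 199.5, 198, 218 and 246 CPM in treated HT55, and at 71.4, 64.4, 82.8 and 72.5 CPM and 64.1, 41, 40.6 and 47 CPM in SW948. The groups were apart in both lines, in opposite order, and the interaction was -1.58 ± 0.17 (SE; adjusted p = 3.2e-07, edgeR). The receptor and target PTCH1 was opposite too, at 0.55 in HT55 and -0.54 in SW948, but on plain totals its HT55 value was 0.40 and did not pass. SHH, the other ligand, fell in both, by 0.95 in HT55 and 2.48 in SW948. SUFU, the inhibitor of the GLI factors, had 0.22 ± 0.11 and 0.11 ± 0.12 and an interaction of -0.11 ± 0.16 (adjusted p = 0.58). CDON, a coreceptor, was the higher one at 0.72 ± 0.20, a call it lost on plain totals. The GLI genes were below the filter on counts.

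Wnt targets had calls in both directions: of 28 tested 8 were higher (28.6%) and 6 lower (21.4%) in SW948, or 7 and 8 on plain totals. The median interaction of 0.024 was -0.17 on plain totals and fell below 0 with 8 of the 16 libraries left out in turn, to -0.12 without HT55 itraconazole replicate 2. LGR5, the crypt stem cell receptor, fell in both lines by 1.78 in HT55 and 2.67 in SW948, and AGR2, a disulfide isomerase of secretory cells, by 1.71 in HT55 and 3.88 in SW948. AXIN2, the feedback target most used to read the pathway, had -0.34 ± 0.14 in HT55, which did not pass (adjusted p = 0.053, edgeR). That value was -0.55 without HT55 itraconazole replicate 3 and -0.50 on plain totals, and passed in both settings. In SW948 AXIN2 had -0.47 ± 0.15, or -0.83 on plain totals, both passing. Its interaction was -0.13 ± 0.21 (adjusted p = 0.63, edgeR), which was 0.077 without HT55 itraconazole replicate 3. EPHB2, the crypt base ephrin receptor, had an interaction of 0.18 ± 0.14 (adjusted p = 0.29, edgeR), which was -0.027 on plain totals. There EPHB2 had -0.49 in HT55 and -0.52 in SW948, both passing. The 4 opposite members all fell in HT55 and rose in SW948. SOX9 (chromosome 17, 70117161 to 70122557, plus strand), a factor of crypt progenitors, had 358, 349, 348 and 342 CPM and 298, 264, 341 and 326 CPM in HT55 and 204, 227, 205 and 210.0 CPM and 393, 374, 341 and 348 CPM in SW948. HT55 fell by a small amount, 0.18, with no overlap, a call that 10 of the 16 libraries ended when left out, and SW948 rose by 0.78 ± 0.075. PROX1 (chromosome 1, 214156524 to 214214853, plus strand), a homeobox factor that marks Wnt-high tumour cells, had 118, 115, 109 and 121 CPM and 54.2, 43.9, 84 and 72.6 CPM in HT55, and 1.28, 1.70, 1.39 and 1.54 CPM and 5.11, 5.29, 6.49 and 3.50 CPM in SW948, where its level was low throughout. Its interaction was 2.63 ± 0.32 (adjusted p = 1.6e-06). The pseudokinase PTK7 had -0.61 in HT55 and 0.38 in SW948, of which the SW948 rise did not pass on plain totals (0.022), and the feedback inhibitor NKD2 -0.40 in HT55 and 0.72 in SW948. Of 12 intestinal stem cell markers 10 fell and 1 rose in SW948, also on plain totals. In HT55 3 fell and 2 rose, or 4 and 1 on plain totals. The interaction was higher in SW948 for 2 and lower for 5. The adhesion molecule ALCAM was opposite at 0.43 in HT55 and -1.73 in SW948. Of 14 Notch genes 6 were higher and 4 lower: HES1, the repressor of secretory fate, rose more in HT55 (1.71 in HT55 and 0.56 in SW948, the latter 0.19 on plain totals without passing), while the ligand DLL1 fell in HT55 by 1.72 with 0.24 in SW948.

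Ribosomal protein genes rose in SW948. Of 48 tested, 41 rose there and the other 7 did not pass, against 3 that rose and 6 that fell in HT55. The interaction was higher in SW948 for 40 and not called for the other 8, at a median of 0.48, with median responses of -0.0030 and 0.49. On plain totals 28 interactions passed, all higher, while HT55 had 25 that fell and SW948 had 21 that rose and 8 that fell. RPL37 (chromosome 5, 40825364 to 40835324, minus strand) was at 839.5, 857, 823 and 874 CPM in HT55 controls and 932, 960.5, 740.3 and 790.5 CPM in treated HT55, which overlap, and at 1285, 1165, 1118 and 1255 CPM and 1984, 2221, 2190 and 2170 CPM in SW948, which do not. It rose by 0.83 ± 0.083 (SE) in SW948, with an interaction of 0.82 ± 0.12 (adjusted p = 1.0e-05, edgeR). These genes have many near-identical pseudogene copies, and reads that align to several places were not counted, so their levels are uncertain. The same holds for NPM1, FTL, KRT8 and KRT19. The share of alignments set apart as multiple was 22 to 23.6% in SW948 controls and 25.3 to 26.2% in treated SW948, against 26.3 to 27.1% and 24.1 to 27.9% in HT55, and its part in the result was not tested.

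Host genes of small nucleolar RNAs, whose introns hold the guides that modify ribosomal RNA, showed the same with larger changes: 12 of 14 were higher in SW948 and the other 2 were not called, with medians of -0.095 in HT55 and 0.98 in SW948. SNHG12 (chromosome 1, 28905050 to 28909644, minus strand) had 5.42, 6.90, 5.94 and 5.46 CPM and 6.77, 4.49, 3.90 and 5.22 CPM in HT55 and 7.79, 7.67, 7.04 and 7.17 CPM and 33.3, 51.4, 58.4 and 47 CPM in SW948. Only SW948 separated, by 2.67 ± 0.16 (SE), and the interaction was 2.91 ± 0.26 (adjusted p = 3.8e-08, edgeR). SNHG1, SNHG17, GAS5 and SNHG5 counted as opposite, with falls of 0.36, 0.33, 0.26 and 0.25 in HT55, and without HT55 itraconazole replicate 3 these falls did not pass and none of the 4 was opposite. Of 32 ribosome biogenesis factors 11 were lower (34.4%) and 6 higher (18.8%) in SW948, or 12 and 4 on plain totals. POLR1A, the large subunit of RNA polymerase I, responded in SW948 only, at -1.86 against -0.0053, while NPM1, a nucleolar chaperone, rose by 0.88 in SW948 with -0.098 in HT55, which was -0.28 and passed on plain totals, and fibrillarin, FBL, was opposite at -0.34 in HT55 and 0.33 in SW948, but its SW948 value was below 0 on plain totals.

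Transcripts of ribosomal proteins and of many host genes begin with a C and a run of pyrimidines, the terminal oligopyrimidine (TOP) motif by which nutrient signals set their translation and decay. This motif was looked up after the values were seen. A C at the annotated start with at least 4 pyrimidines after it was present in 24 of 38 ribosomal protein genes with a RefSeq promoter (63.2%) and in 4 of 12 host genes (33.3%), against 5.39% of the promoters of genes tested. It was present in 7.78% of genes that rose in SW948 only and 2.68% of those that fell there. Annotated starts may differ from those in these cells. The stretches below run from 15 bases before the start to 14 after it (GRCh38.p14, 5′ to 3′ on the gene's strand), with the C and its pyrimidine run in capitals, for 6 genes of these lists with a called interaction.
RPS3 (chr11:75399503-75399532, plus strand): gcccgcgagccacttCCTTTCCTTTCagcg
RPS24 (chr10:78033848-78033877, plus strand): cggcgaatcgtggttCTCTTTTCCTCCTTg
RPLP2 (chr11:809952-809981, plus strand): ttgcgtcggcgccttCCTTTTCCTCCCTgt
SNHG12 (chr1:28581859-28581888, minus strand): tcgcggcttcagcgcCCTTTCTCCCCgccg
SNHG5 (chr6:85678719-85678748, minus strand): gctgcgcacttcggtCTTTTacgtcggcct
ZFAS1 (chr20:49278627-49278656, plus strand): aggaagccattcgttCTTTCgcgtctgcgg

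Targets of ATF4, the factor of the amino acid and unfolded protein responses, fell more often than they rose in HT55 and were mixed in SW948. Of 33 tested, 16 fell and 2 rose in HT55, against 12 and 10 in SW948. Over all 13249 genes 10113 passed in SW948, of which 5033 rose, so the SW948 counts of this list stood near those over all genes. The interaction was higher in SW948 for 17 and lower for 7, or 13 and 10 on plain totals. On plain totals 26 fell in HT55 and 21 fell in SW948, with median responses of -0.55 and -0.42. ASNS (chromosome 7, 97480989 to 97501854, minus strand), asparagine synthetase, was at 551, 577, 566 and 597 CPM in HT55 controls and 291, 238, 301 and 228 CPM in treated HT55, and at 441, 411, 405 and 426 CPM and 384, 487, 470.2 and 467 CPM in SW948. It fell in HT55 only, by 1.11 ± 0.090 (SE), with 0.10 ± 0.088 in SW948, and kept this class on plain totals, where SW948 was at -0.26 and passed. AARS1 (chromosome 16, 70285886 to 70323610, minus strand), alanyl-tRNA synthetase, had 606, 599, 580.5 and 611 CPM and 684, 609.6, 527 and 519 CPM in HT55, which overlap, and 291, 292, 289.6 and 308 CPM and 662, 869, 887 and 752 CPM in SW948. It rose in SW948 only, by 1.42 ± 0.095, with an interaction of 1.46 ± 0.13 (adjusted p = 5.3e-08, edgeR), and on plain totals HT55 was at -0.21 and the gene was opposite. MTHFD2, of mitochondrial folate metabolism, and SLC3A2, the chain that amino acid exchangers share, met the rule for SW948 only as well, at 1.09 and 1.51, MTHFD2 being opposite on plain totals. ATF4 itself had -0.23 ± 0.10 in HT55 and rose by 0.99 ± 0.10 in SW948, and PPP1R15A, which restores translation, by 1.14 there. CHAC1, a glutathione-cleaving target, and PSPH, of serine synthesis, fell in both and more in SW948, with interactions of -1.23 ± 0.20 and -1.14 ± 0.17. Of 28 ATF4 targets with a promoter sequence 6 held the CARE-type motif TGATGNAA on either strand (21.4%), against 1.69% of genes tested. A gene of HT55 only, a gene of SW948 only and a gene that fell in both hold it, as shown here with the match in capitals (GRCh38.p14, 5′ to 3′ on the gene's strand).
ASNS (chr7:97872458-97872487, minus strand): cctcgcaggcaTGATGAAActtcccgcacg
AARS1 (chr16:70289675-70289704, minus strand): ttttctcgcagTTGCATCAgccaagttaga
CHAC1 (chr15:40953251-40953280, plus strand): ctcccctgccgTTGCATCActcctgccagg

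Metallothioneins, small proteins that bind zinc and copper, rose steeply in SW948. Of 10 tested genes of metallothioneins and zinc transport 5 were higher in SW948 and the other 5 were not called, with 4 higher and 1 lower on plain totals. MT2A (chromosome 16, 56642496 to 56643409, plus strand) stood at 28.4, 28.2, 24.8 and 25.4 CPM in HT55 controls and 19.6, 18.6, 13.2 and 13.1 CPM in treated HT55, and at 0.963, 0.473, 0.521 and 0.771 CPM in SW948 controls and 7.11, 33.2, 51 and 19.4 CPM in treated SW948. The treated HT55 libraries were all below their controls and the treated SW948 libraries all above, with a wide spread among the latter. The interaction was 6.0 ± 0.64 (SE; adjusted p = 3.4e-07, edgeR), the SW948 response 5.28 ± 0.52, and the HT55 response -0.73 ± 0.34 did not pass (adjusted p = 0.078). On plain totals the HT55 response was -0.90 and passed, and MT2A was opposite there. MT1X had 36 counts over the 4 SW948 controls and 523 over the treated libraries, MT1G 2 and 110, and MT1E 1 and 124. The ratio per total count for MT1E was 133 with a 95% counting interval of 23.5 to 5310, and for MT1X 15.6, from 11.1 to 22.6. These intervals cover counting error only, and the MT1 genes are near-identical copies, so how reads divide among them is uncertain. The zinc exporter SLC30A1 rose in both lines, by 1.55 in HT55 and 1.89 in SW948, with an interaction of 0.34 ± 0.20 (adjusted p = 0.17), and the metal sensor MTF1 had an interaction of 0.099 ± 0.18 (adjusted p = 0.66).

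Targets of NRF2, the factor of the oxidant response, rose in both lines, 13 of 19 in HT55 and 17 of 19 in SW948. The interaction was higher in SW948 for 13 and not called for the other 6, with medians of 1.02 and 1.81. SW948 had the larger response in all 8 members changed the same way with unequal size, against 2171 of 2395 such genes tested. The reductase AKR1C2, which has close homologues, rose by 1.91 in HT55 and 3.82 in SW948, GCLM, of glutathione synthesis, by 0.49 in HT55 and 1.96 in SW948, and the ferritin chain FTL by 1.52 in HT55 and 2.73 in SW948. PGD, of the pentose phosphate pathway, was opposite at -0.30 in HT55 and 0.33 in SW948, but its SW948 value was below 0 on plain totals. HMOX1, OSGIN1 and AKR1B10 rose in both with interactions that did not pass, at 0.62 ± 0.37, -0.088 ± 0.36 and 1.48 ± 0.87. Of 27 autophagy genes 16 rose in HT55 against 4 that fell, and 15 rose in SW948 against 5, with 11 interactions higher and 3 lower in SW948. On plain totals the rises and falls were 7 and 5 in HT55 and 12 and 11 in SW948, and 10 interactions were higher and 8 lower. The cargo receptor SQSTM1 rose by 0.87 in HT55 and 2.23 in SW948 and GABARAPL1, which coats autophagosomes, by 1.92 in HT55 and 3.26 in SW948.

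Lysosome genes rose in HT55 and rose more often than they fell in SW948, though there the balance moved with the scaling. Of 26 tested 20 rose in HT55 and the other 6 did not pass, and 16 rose and 6 fell in SW948, with 12 interactions lower and 5 higher in SW948. The SW948 median of 0.35 became -0.020 on plain totals, where 11 members rose and 9 fell in SW948. CTSA (chromosome 20, 44518783 to 44527588, plus strand), a carboxypeptidase that protects lysosomal neuraminidase and galactosidase, had 57.7, 55.5, 62 and 55.3 CPM in HT55 controls and 102, 118, 124 and 115 CPM in treated HT55, and 59.7, 60.9, 64.1 and 57.3 CPM and 44.6, 43.2, 45.4 and 36.6 CPM in SW948. Groups were apart in both lines, in opposite order, with an interaction of -1.50 ± 0.11 (SE; adjusted p = 5.8e-09, edgeR). LAMP1, of the lysosomal membrane, and ATP6V0D1, of the proton pump, were the other opposite members, the latter not on plain totals or without HT55 itraconazole replicate 3, at 0.42 in HT55 and -0.49 in SW948 and 0.31 in HT55 and -0.40 in SW948. The protease CTSD met the rule for HT55 only, at 1.29 against 0.29 in SW948 that was below 0 on plain totals, and GLB1, beta-galactosidase, rose more in SW948, by 0.89 in HT55 and 1.64 in SW948. The unfolded protein response had 8 of 21 lower and 3 higher in SW948, or 12 and 2 on plain totals, with DNAJB9, a chaperone of the endoplasmic reticulum, at 0.49 in HT55 and 1.15 in SW948 and PDIA4, a disulfide isomerase, at 0.29 in HT55 and -0.43 in SW948, the latter's HT55 rise not passing on plain totals.

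Growth factor and BMP signalling held several opposite genes. Of 11 ERBB receptors and ligands 3 were higher and 5 lower in SW948. AREG (chromosome 4, 75310853 to 75320722, plus strand), amphiregulin, a ligand of EGFR with a near-identical copy next to it in this build, had 2.49, 2.37, 2.02 and 2.37 CPM in HT55 controls and 1.54, 1.42, 0.761 and 0.870 CPM in treated HT55, a low level, against 11.1, 11.4, 12.2 and 12.7 CPM and 22.7, 28.2, 25.4 and 19.4 CPM in SW948. It fell in HT55 and rose in SW948 with no overlap, with an interaction of 2.04 ± 0.28 (SE; adjusted p = 6.6e-06, edgeR). BTC, betacellulin, fell in both and far more in SW948, from a mean of 25.8 to 0.576 CPM, and the receptor ERBB2 was opposite at 0.37 in HT55 and -0.48 in SW948, its HT55 rise not passing on plain totals. Of 18 ERK feedback genes 5 were higher and 4 lower, and PHLDA1 rose in SW948 only, by 1.57. Of 18 BMP and TGF-beta targets 10 were lower and 4 higher in SW948. SMAD6 (chromosome 15, 66994574 to 67075187, plus strand), the inhibitor that BMP signals induce, had 27.9, 25.8, 28.2 and 24 CPM and 47.4, 46, 40.8 and 46.6 CPM in HT55 and 6.58, 5.49, 7.47 and 6.09 CPM and 2.81, 1.42, 1.53 and 1.47 CPM in SW948, again apart and in opposite order, with an interaction of -2.56 ± 0.22 (adjusted p = 2.5e-08). ID2 was opposite in the same sense, at 0.75 in HT55 and -0.40 in SW948, and ID1 and ID3, BMP targets that block differentiation factors, fell in SW948 by 2.16 and 1.56 with HT55 values of 0.22 and 0.027 that did not pass, of which that of ID1 was -0.21 without HT55 itraconazole replicate 3. ID4 went the other way, at -0.60 in HT55 and 0.95 in SW948, on a level near 0.609 CPM in SW948 controls, and PMEPA1, a TGF-beta target, rose in SW948 only, by 1.18. On plain totals PHLDA1 and PMEPA1 were opposite and ID4 was not.

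Matrix and adhesion genes were divided by member. Of 18 laminins and integrins 4 were higher (22.2%) and 6 lower (33.3%) in SW948 and 5 were opposite: COL17A1, a collagen of hemidesmosomes, at 0.49 in HT55 and -1.88 in SW948, LAMA3, a laminin chain, at 0.97 in HT55 and -0.43 in SW948, the integrins ITGB6 and ITGAV with interactions of -0.83 ± 0.16 and -0.97 ± 0.14, and the tetraspanin CD151, in the reverse sense, at -0.37 in HT55 and 0.33 in SW948. On plain totals 2 of the 5, COL17A1 and LAMA3, were still opposite, and the SW948 value of CD151 was below 0. LAMB3, which pairs with LAMA3, rose in both at 0.33 in HT55 and 1.66 in SW948, but its HT55 value was 0.15 on plain totals and did not pass, nor did it with 7 of the 16 libraries left out in turn. Of 26 tight junction and adhesion genes 10 were higher and 6 lower in SW948, or 8 and 10 on plain totals. CDH17, the cadherin of the gut, was opposite at 0.58 in HT55 and -0.62 in SW948, and the tight junction protein CLDN1 fell in both, by 0.74 in HT55 and 2.45 in SW948. Of 7 keratins 6 were higher in SW948, with KRT19 and KRT8 in the SW948 only class at 1.38 and 1.06, against -0.19 and 0.11 in HT55, a class both left on plain totals. Tubulins and their regulators fell in HT55, 11 of 18, while SW948 had 8 that rose and 4 that fell, and the median of 0.098 in SW948 became -0.27 on plain totals. TUBB2B, a neuronal beta-tubulin with a close copy in TUBB2A, was opposite at -1.09 in HT55 and 2.0 in SW948.

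Transport and metabolism of drugs differed by gene. Of 14 tested 7 were lower and 3 higher in SW948. The cytochrome CYP3A5, of the family that metabolises itraconazole and is inhibited by it, fell in SW948 by 1.98 with 0.024 in HT55, which was -0.31 without HT55 itraconazole replicate 3, neither passing. The efflux pump ABCB1 rose in HT55 by 0.89 and had -0.36 in SW948 (adjusted p = 0.14, edgeR), with the HT55 rise lost and a SW948 fall of 0.71 passing on plain totals, and with an interaction of -1.25 ± 0.39. CYP2B6, whose reads may be shared with a pseudogene, had 0.37 in HT55 and -1.67 in SW948, and was opposite neither on plain totals nor without HT55 itraconazole replicate 3. Of 15 genes of MHC class I presentation 10 were higher and 1 lower in SW948, or 7 and 2 on plain totals, among them PSMB9 of the immunoproteasome (-0.35 in HT55 and 1.39 in SW948) and HLA-B (0.96 in HT55 and 2.52 in SW948), which shares sequence with the other class I genes. Zinc finger genes of chromosome 19, 186 of which were tested, had 67 lower (36.0%) and 34 higher (18.3%) in SW948, against 29.1% and 24.8% of all genes, with medians of -0.44 and -0.68.

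In energy metabolism calls ran in both directions, and the balance moved with the scaling. Of 24 glycolysis genes 9 were higher and 4 lower in SW948, or 8 and 10 on plain totals, and their median interaction of -0.070 was 0.044 without HT55 itraconazole replicate 2. Of 18 hypoxia-induced genes 7 were higher and 2 lower, or 5 and 4 on plain totals. Of 32 nuclear genes of the respiratory chain 8 were higher (25%) and 8 lower, or 3 and 13 on plain totals, where the median of 0.081 became -0.11. ADM, a vasodilator peptide induced by hypoxia, rose by 0.78 in HT55 and 2.59 in SW948, the former not passing on plain totals. SLC2A1, the main glucose transporter, fell in SW948 by 0.73 with -0.034 in HT55. Of 13 mitochondrially encoded genes 5 were higher and 1 lower, MT-ND5 at 0.55 in HT55 and 1.74 in SW948 and MT-CYB, the lower one, at 0.083 in HT55 and -0.91 in SW948. The median interaction of these 13 was 0.30, and -0.069 without SW948 itraconazole replicate 1. Interferon-stimulated genes had 7 of 28 higher and 4 lower, or 7 and 8 on plain totals, with IFI27 opposite at 0.97 in HT55 and -0.25 in SW948. NF-kB targets had 6 of 17 higher and 3 lower, with the chemokine CX3CL1 opposite at 1.63 in HT55 and -0.98 in SW948, the latter -1.73 without SW948 itraconazole replicate 1, and RELB rising in both at 0.86 in HT55 and 2.14 in SW948. Splicing factors of the SR family had 5 of 16 higher and 4 lower, or 3 and 7 on plain totals: SRSF4 rose in SW948 only, by 1.18, and was opposite on plain totals, and SRSF1 fell in both, by 1.24 in HT55 and 3.09 in SW948.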

How the data were processed

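RNA from 16 cultures was sequenced with 50-base reads. The deposited values are whole-number counts of reads per Ensembl gene, made by the authors with TopHat and HTSeq on hg19 (GRCh37), as the submitters' processing notes and the study's methods give them; DESeq is also named there, while tool versions, the annotation release and the strand setting are not given in the sources used here. The 5 closing totals of each file were left out of library sizes and tests. Symbols and coordinates come from GENCODE's GRCh37 mapping, which named 47098 of 54127 identifiers holding 97.8% of gene counts.

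Counts were filtered with filterByExpr, scaled by TMM and fitted with edgeR 4.0.16 (R 4.3.3) as 4 group means, and quasi-likelihood tests of each line's response and of the interaction were adjusted by Benjamini-Hochberg over all genes tested, two-sided, with adjusted p below 0.05 called. Log2 CPM used a prior count of 2. The script was tested on simulated data first. Totals of 8269406 to 11110814 gene counts per library limit the precision of genes at a few CPM, and intervals of count ratios (95%, exact) cover counting error only.

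The 44 gene lists, and the classes described, were chosen with earlier results of these data known, so counts over a list are descriptions without a test. Named genes are the 6 largest interactions of each sign among opposite genes with mean log2 CPM of at least 3 in each line and no overlap of treated and control libraries, up to 4 per direction among genes of 1 line only under the same level rule, the 2 largest called interactions of each sign in each list, and genes that the study discusses. Other members named were chosen after their values were seen, as was the TOP-type motif. Promoters come from RefSeq (GRCh38.p14), where 10112 of the tested genes matched by symbol. The alternatives were other scalings, count filters, thresholds and bounds, the DESeq2 1.42.0 Wald test, replicate blocks and each library left out. No pair of libraries was a duplicate, the highest correlation being 0.995. The 11 list entries without an identifier were not analysed here. Some list members are counted but not reported here by name.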

Additional observations from a re-analysis of the deposited data

Results flagged for a closer look

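The test of the difference between the lines was passed by 7141 genes, and 795 of them had called responses in opposite directions, as described above. Of the 12 named opposite genes, the interaction was 4.35 for ARRDC3, 3.33 for TPPP, 2.94 for TRIM47, 2.68 for MYADM, 2.21 for ARID5A and 1.97 for CISH, which were higher in SW948 (log2). It was -2.94 for SLC6A20, -2.90 for FRMD3, -2.79 for ARRB1, -2.67 for THBS1, -2.67 for RETREG1 and -2.63 for GGT6, which were higher in HT55.

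Single libraries stood apart from the other 3 of their group in 13 of the 140 groups of 4 whose values are printed past Dixon's 95% critical value for the ratio of the gap to the range. Chance flags about 1 in 20 such groups, and over all named genes 46 of 772 groups (5.96%) were past the value. SW948 DMSO replicate 3 made 13 of these 46 and HT55 itraconazole replicate 3 made 3.

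SW948 DMSO replicate 3 was the highest control for TRIM47 (ratio 0.919), INSIG1 (0.910), SLC26A3 (0.885) and CDX2 (0.879), and the lowest for ARRDC3 (0.831). Without it the interaction of SLC26A3 was -3.60 instead of -4.57, and that of ARRDC3 4.09 instead of 4.35. HT55 itraconazole replicate 3 was the highest of its group for FGF19 (0.924), at 6.00 CPM. In treated SW948, replicate 1 was the highest for VDR (0.880) and SMAD6 (0.922), and replicate 3 the lowest for SLC26A3 (0.928). Among controls, HT55 replicate 1 was the highest for TRIM47 (0.859), HT55 replicate 2 and SW948 replicate 2 for LGR4 (0.846 and 0.911), and SW948 replicate 4 for AARS1 (0.872). The calls of these genes' interactions passed without each library in turn.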

How the results depend on the processing

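Plain totals in place of TMM kept the number of called interactions (7224 against 7141) but not their split, as given above, and turned the sign of the median interaction of 6 lists: Wnt targets, bile acid axis, nuclear respiratory chain, autophagy, tight junction and adhesion, and laminins and integrins. Stricter thresholds lowered the counts: with an absolute interaction of at least 1 there were 2760 called interactions, 397 opposite genes and 914 changed the same way with unequal size, and with adjusted p below 0.01 there were 423 opposite genes and 1446 changed the same way. A bound of 0.3 on the other line left 117 genes of SW948 only and 5 of HT55 only, and a bound of 1 gave 1858 and 146, so these classes depend on the bound. With each library left out in turn the interactions numbered 6762 to 7450, opposite genes 655 to 883, genes of SW948 only 447 to 684, of HT55 only 27 to 64, and those changed the same way 2057 to 2747. The count of 64 came without HT55 itraconazole replicate 3.

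Of 4607 alternative values for the interactions of 193 named genes, 4553 kept direction and side of the threshold, 51 lost the call, 1 gained it (EPHB2 without HT55 itraconazole replicate 3) and 2 reversed: AXIN2 ran from -0.25 to 0.077 with 1 library left out, the latter without HT55 itraconazole replicate 3, and EPHB2 was -0.027 on plain totals, neither being called before or after. The cause was not tested. Calls lost on plain totals were those of ABCG1, CDON, CDT1, FABP6, FOXA2, GATA6 and LGALS4. Whether replicate numbers pair the samples cannot be told, since low correlations of deviations from group means do not exclude shared cultures. Correlations of same-numbered controls and treated libraries ran from -0.025 to 0.116, and those of different numbers from -0.12 to 0.05. The highest in each line was that of replicate 3 with replicate 3, at 0.116 in HT55 and 0.104 in SW948. With the replicate block within each line 7037 interactions were called, and with the block across lines 7155. At 50-base reads, genes with near-identical copies stay uncertain, and genes under 1 CPM in a line could not be placed in a class.

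Of 330 responses within 1 line that passed, among 195 genes named, 33 lost the call when at least 1 of the 16 libraries was left out. In HT55 these were ABCC3 (lost with 11 libraries), SOX9 (10), ABCA1, ATP6V0D1 and CYP2B6 (9 each), LAMB3 (7), VIL1 (6), ADM, CDKN2D, ISX and TUBB2A (5 each), ABCB1, GAS5, HSPG2, SNHG1 and SNHG17 (4 each), CCNB1, CDK1 and SNHG5 (3 each), CDHR5, CDKN1A and ITGB6 (2 each), and FOXM1, MKI67 and NR1H2 (1 each). In SW948 they were CX3CL1 and ID4 (5 each), KIF23 and SESN1 (4 each), IFI27 (3), HES1 (2), and PTCH1 and THBS1 (1 each). On plain totals 46 responses lost the call and 32 gained it. Of these gains, the HT55 falls of ATF4, KRT19, PPP1R15A, PSMB9, RPL37, RPLP2, RPS24 and RPS3 are not given above. Nor are the SW948 falls of ABCA1, CIRBP, TM7SF2 and ZFAS1. The interaction of FGFR4 lost its call with 2 libraries left out and that of ABCG1 with 7. Some genes chosen after their values were seen are not in the count of alternative values above. Among these, the interaction of CEACAM5 was 0.71 and passed without HT55 itraconazole replicate 4, and that of TUBB2A passed with 3 libraries left out in turn. The uncalled interactions of EMP1 and OSGIN1 turned sign with 3 libraries each, and that of LSS with 1.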
